A study of Mus musculus with 12 samples.

Results

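The genes described here encode the protein subunits of the cytosolic ribosome. They were found by symbol in the 2 deposited count tables, as Rpl, Rplp and Rps genes numbered in the usual way, without the S6 kinases and without symbols marked as pseudogenes. Of 23420 genes, 83 symbols matched, and the 78 with a mean of at least 10 counts over the 12 libraries were kept. They comprise 46 genes of the large subunit and 32 of the small subunit. The symbols just under the threshold were Rpl30 with a mean of 7.67 counts, Rpl3l with 4.08 and Rpl39l with 0.333, while Rpl10l and Rpl26 had no count in any library. Just inside it lay Rps27 with a mean of 11.1 counts and Rpl34 with 19.5.

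Ribosomal proteins assemble with ribosomal RNA in the nucleolus into a small subunit, which decodes the messenger RNA, and a large subunit, which forms the peptide bond. Their mRNAs are among the most abundant of most cells and typically begin with a terminal oligopyrimidine (TOP) tract, a C followed by a run of C and T. The kinase complex mTORC1, which the TSC1/TSC2 complex restrains, promotes translation of TOP mRNAs through LARP1 and the 4E-BP proteins. The adaptor p62, encoded by Sqstm1, delivers cargo to autophagy, and it has been described as a partner of mTORC1.

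RNA was sequenced from livers of mice on a C57BL/6 background, with 3 libraries in each of 4 groups. In p62Δhep mice both Sqstm1 alleles were floxed and Cre was expressed from the albumin promoter, whose activity is in hepatocytes. The p62F/F mice carried the same floxed Sqstm1 alleles and no Cre, so in that pair p62 deletion cannot be told apart from Cre itself. The Tsc1/p62Δhep mice carried floxed Tsc1 and floxed Sqstm1 alleles with albumin-driven Cre. The Tsc1Δhep mice carried floxed Tsc1 and albumin-driven Cre, so Tsc1 deletion and Cre are common to the last pair of groups, which differ in Sqstm1. Liver cells in which that promoter is silent keep their alleles in all groups. The sources used here do not give age, sex, or the diet and sequencer of each library. Nor do the labels state that each library is a different animal, so p-values measure the spread between libraries, which may be technical.

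The start sites of some of these genes show the sequence feature for which the family is known. Windows of 30 bases, from 10 before to 20 after the RefSeq start on GRCm38.p6, are printed for the 4 members of highest and the 4 of lowest level per kb among those whose window could be printed. Capitals mark each run of a C followed by at least 4 further C or T, searched on the transcribed sense strand and starting within 10 bases of the annotated start, on either side. Where a gene had several annotated starts, the window was picked for such a run, at the start itself first and near it next. The windows thus favour the feature.
Rps24, chr14:24490668-24490697, plus strand: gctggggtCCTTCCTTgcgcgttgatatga
Rps2, chr17:24720053-24720082, plus strand: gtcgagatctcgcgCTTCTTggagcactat
Rpl13a, chr7:45128726-45128755, minus strand: cctgcgacaagaCCTCCTCCTTTCCCaggc
Rps15, chr10:80292421-80292450, plus strand: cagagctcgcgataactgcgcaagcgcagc
Rpl7l1, chr17:46782637-46782666, minus strand: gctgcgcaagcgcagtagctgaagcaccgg
Rps15a, chr7:118116128-118116157, minus strand: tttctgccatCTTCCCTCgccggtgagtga
Rpl34, chr3:130730318-130730347, minus strand: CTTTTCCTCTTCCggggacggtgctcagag
Rps27, chr3:90213629-90213658, minus strand: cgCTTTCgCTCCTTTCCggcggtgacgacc

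In Rps15a the run began at the annotated start. In Rps27 the annotated first base was also a C followed by at least 4 further C or T, but the run of 9 bases around it began 2 bases before that start, and a further run lay upstream. In Rps24 it began 2 bases before that start, in Rpl34 at the edge of the window 10 bases before it, in Rpl13a 2 bases after it, and in Rps2 it was 6 bases long and began 4 bases after it. Rps15 and Rpl7l1 had no such run in the window, which says only that these letters are not there. A window was found for 58 of the 78 members. The annotated first base was itself a C followed by at least 4 further C or T in 13 of them, whatever stood before it, or 22.4%, against 3.01% of the 27025 genes in the RefSeq table. A run that began within 10 bases of the start was found in 36 members, or 62.1%, against 34.4% of all genes. In both counts, a gene with several annotated starts was included if any of them had the run.

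Per library, 15792048 to 33377247 counts had been assigned to genes. Levels are given as CPM, the count per 1000000 counts of a library total that was first multiplied by edgeR's TMM scaling factor. Sqstm1 was measured at 12.4 to 19.8 CPM in p62Δhep and 316 to 351 CPM in p62F/F. It was at 14.4 to 19.6 CPM in Tsc1/p62Δhep and 789 to 1210 CPM in Tsc1Δhep. Tsc1 was at 9.35 to 13.7 CPM in Tsc1/p62Δhep and 5.39 to 10.9 CPM in Tsc1Δhep, against 26.0 to 39.7 CPM in p62Δhep and 28.1 to 34.9 CPM in p62F/F. All 8 hepatocyte markers, Alb, Apoa1 and Ttr among them, were detected in each group. CPM values were scaled within each table of 6 libraries, so levels set side by side across the tables carry no test. The TMM factors were 0.897, 0.898 and 0.865 in Tsc1/p62Δhep 1 to 3, against 1.06, 1.11 and 1.22 in Tsc1Δhep 1 to 3.

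Ribosomal protein genes took a share of the library that hardly differed between p62Δhep and p62F/F, whereas it differed by more than a factor of 3 among the Tsc1Δhep libraries. The 78 genes held 1.29%, 0.999% and 1.38% of all counts in p62Δhep libraries 1 to 3, against 1.13%, 1.34% and 1.25% in p62F/F libraries 1 to 3. They held 0.675%, 0.646% and 0.684% in Tsc1/p62Δhep, against 2.76%, 1.80% and 0.8004% in Tsc1Δhep. As group means with SD over 3 libraries, this was 1.22 ± 0.199% in p62Δhep, 1.24 ± 0.107% in p62F/F, 0.668 ± 0.0195% in Tsc1/p62Δhep and 1.79 ± 0.982% in Tsc1Δhep. Counting error was far smaller than these spreads, since the 95% Wilson interval of each library reached at most 0.00689 percentage points to either side. The ranges of p62Δhep and p62F/F overlapped, and every Tsc1/p62Δhep library lay under every Tsc1Δhep library, the nearest being Tsc1Δhep 3. These shares use library totals without TMM factors, and that separation did not hold on the TMM scale. There the median member, as log2(CPM + 0.5) relative to each gene's mean, was at -0.63 in Tsc1Δhep 3. It was at -0.40, -0.54 and -0.39 in Tsc1/p62Δhep 1 to 3. In bulk liver RNA, fewer cells of a type and less RNA per cell cannot be told apart.

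**Figure D1:**
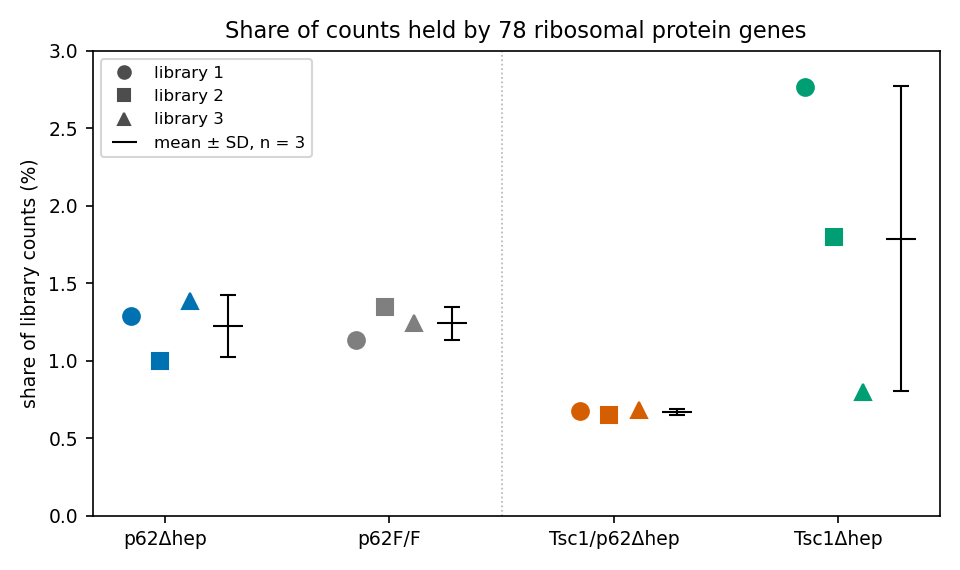
Share of all counts of a library (y axis, %) held by the 78 ribosomal protein genes, 1 symbol per library, with the mean and SD of the 3 libraries of each group as a bar. The Tsc1/p62Δhep libraries lie together between 0.646% and 0.684%, while the Tsc1Δhep libraries run between 0.8004% and 2.76%. Shares use library totals without TMM factors.

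Levels within the family were compared per kb of transcript. The median member had 166 CPM per kb averaged over the 12 libraries, and 59 of 78 exceeded 100 CPM per kb. The highest were Rplp1, an acidic protein of the ribosomal stalk, with 607 CPM per kb, then Rps24 with 434, Rps2 with 419, Rps14 with 409 and Rpl13a with 372. The second place of Rps24 rests on Tsc1Δhep, where it had 793 CPM per kb and Rps2 273, while in p62Δhep, p62F/F and Tsc1/p62Δhep it had 367, 395 and 180 CPM per kb, each below Rps2 with 577, 587 and 241. At the other end stood Rps27 with 1.57 CPM per kb and Rpl34 with 1.97, then Rps4y2 with 14.5, Rps15a with 20.1 and Rps20 with 27.3. The last pair rests on long annotated transcripts of 5179 and 3706 bases, so their rank is uncertain. Transcripts of members were short, with a median of 795 bases against 2744.5 bases over the genes tested in the Tsc1 table. Of the 78 genes, 76 share at least 1 window of 75 bases with another annotated gene and 31 share at least 50% of them, reaching 98.5% for Rps27. Reads from such windows could have been split or dropped in counting, so absolute levels of these genes, and of Rps27 and Rpl34 in particular, are uncertain.

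The order of members by level was nearly the same in every library of the p62 table, with Spearman's rho between 0.966 and 0.99 over 78 genes. Between libraries of different tables rho was 0.702 to 0.857. In the Tsc1 table, Tsc1Δhep 3 had rho 0.939 to 0.965 with the Tsc1/p62Δhep libraries and Tsc1Δhep 1 had 0.824 to 0.868. These correlations are across genes, which share a library and its depth, and are given as a description. Large over small subunit counts stood at 1.43 to 1.45 in p62Δhep, 1.40 to 1.44 in p62F/F, 1.45 to 1.60 in Tsc1/p62Δhep and 1.54 to 1.69 in Tsc1Δhep.

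The first comparison asks whether loss of p62 in hepatocytes with intact Tsc1 is accompanied by a change in these genes. None of the 78 passed the test between p62Δhep and p62F/F, and their fold changes centred on 0. In the quasi-likelihood test of edgeR, with Benjamini-Hochberg adjustment over 12567 genes, 0 were higher and 0 lower at an adjusted p under 0.05, against 0.0% and 0.0159% of all genes. No member reached an unadjusted p under 0.05 in either direction either, against 3.16% of all genes higher and 4.96% lower, and DESeq2 and limma likewise called 0, against 1.1% and 0.0318% of all genes lower. The median log2 fold change was 0.00 for the members and 0.00 for all genes, and 74 of 78 members lay within 0.25 of no change. Not one member had groups that did not overlap, against 6.17% of all genes higher and 6.65% lower.

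Among the p62Δhep libraries the members moved together. Library p62Δhep 3 was the highest of its group for 75 of 78 genes and p62Δhep 2 the lowest for 68. How many of all genes share that order was not computed. The median coefficient of variation (CV) of the members was 16.2% in p62Δhep and 5.61% in p62F/F, where over all genes tested it was 15.8% and 12.9%. The median level of the members, on log2(CPM + 0.5) relative to each gene's mean in the table, was -0.04, -0.21 and 0.22 in p62Δhep 1 to 3 and -0.02, 0.04 and 0.00 in p62F/F 1 to 3. The p62F/F values thus fell inside the spread of p62Δhep.

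Rpl29, a large subunit protein, had the largest fold change and rested on a single library. It was measured at 92.0, 85.6 and 62.1 CPM in p62Δhep 1 to 3, against 98.2, 3.49 and 45.8 CPM in p62F/F 1 to 3. Both the highest and the lowest value came from p62F/F, and the log2 fold change was 0.70 ± 0.86 (SE, edgeR adjusted p = 0.865). Rps29, a zinc-binding protein of the small subunit, had 62.3, 52.6 and 102 CPM in p62Δhep, against 53.6, 59.7 and 53.9 CPM in p62F/F. Libraries p62Δhep 1 and 3 stood above all p62F/F libraries and p62Δhep 2 below them (log2 fold change 0.38 ± 0.24 SE, edgeR adjusted p = 0.729).

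Rpl7l1, a paralog of Rpl7 that acts in assembly of the large subunit, had the lowest adjusted p of the family. Its levels were 83.8, 96.9 and 102 CPM in p62Δhep and 84.6, 72.3 and 81.0 CPM in p62F/F, which overlap (log2 fold change 0.25 ± 0.13 SE, edgeR adjusted p = 0.669). Rpl41, the smallest ribosomal protein, had a log2 fold change of 0.27 and Rps4y2 one of 0.24. On the other side stood Rps27 at -0.45 with an SE of 0.57, then Rpl5 at -0.17, Rpl3 at -0.15, Rpl22 at -0.14 and Rpl17 at -0.13. The adjusted p-values of these 7 genes lay between 0.784 and 0.876 by edgeR.

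**Figure D2:**
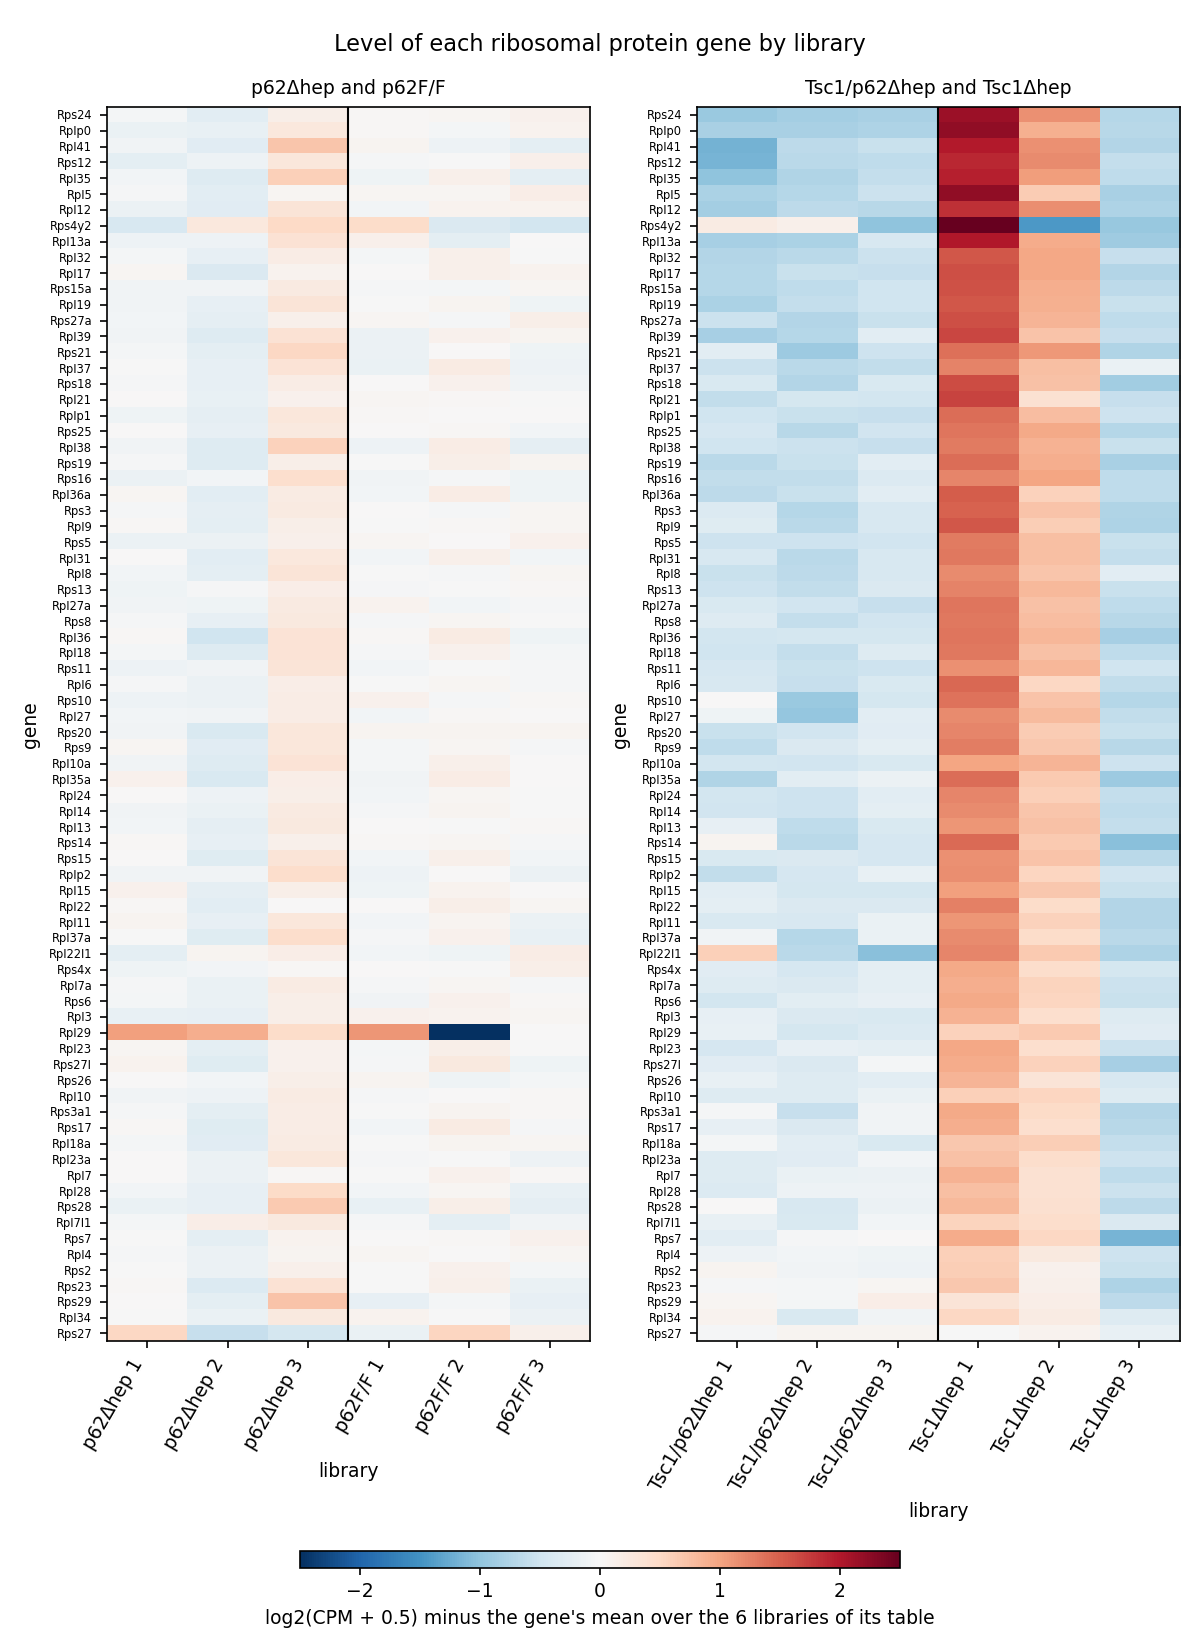
Level of each of the 78 ribosomal protein genes (rows) in each library (columns), as log2(CPM + 0.5) minus the gene's mean over the 6 libraries of its table, with red above and blue below that mean. Rows are ordered by the fold change between Tsc1/p62Δhep and Tsc1Δhep, with Rpl34 and Rps27, which were not tested there, at the bottom. Nearly every row is red in Tsc1Δhep 1 and 2 and blue in Tsc1Δhep 3 and Tsc1/p62Δhep, and p62F/F 2 is dark blue for Rpl29.

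The second comparison asks the same of p62 loss in livers whose hepatocytes lack Tsc1. Nearly the whole family had lower values in Tsc1/p62Δhep than in Tsc1Δhep, yet few members passed the test, and the Tsc1Δhep libraries differed widely among themselves. The fold change was negative for 75 of 76 members tested, against 6584 of all 12620 genes tested. The median log2 fold change was -1.07 for the members, against -0.05 over all genes tested. Rpl34 and Rps27 had too few counts to be tested there. In edgeR's quasi-likelihood test, adjusted by Benjamini-Hochberg, 4 members fell and 0 rose, against 14.9% of all genes lower and 9.25% higher. That share of 4 in 76 is below the background. At an unadjusted p under 0.05, 44 members were lower and 0 higher, against 22.7% and 17.0% of all genes. In 5 members all Tsc1/p62Δhep libraries were below all Tsc1Δhep libraries, against 23.4% of all genes, and in 0 members above, against 22.3%. The DESeq2 test called 34 of 76 lower, against 18.8% of all genes.

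The spread in Tsc1Δhep followed its libraries in order across the family. Library Tsc1Δhep 1 was the highest of its group for 76 of 78 genes, and Tsc1Δhep 3 was the lowest for 77. With Tsc1Δhep 3 set aside, Tsc1Δhep 1 and 2 both exceeded every Tsc1/p62Δhep library for 75 of 78 genes. The counts of library order in this paragraph were made for the members only. How many of all genes share these orders was not computed. On the TMM scale, Tsc1Δhep 3 lay below all Tsc1/p62Δhep libraries for 46 genes, among them for 27 and above them for 5. By the joint share of all counts, made without TMM factors, Tsc1Δhep 3 lay above all of them. Its place relative to Tsc1/p62Δhep thus depends on the scaling. Between Tsc1Δhep 1 and 3 the log2 difference had a median of 1.87 and a range of 0.62 to 4.15, and between Tsc1Δhep 2 and 3 a median of 1.34. The median CV of the members was 9.49% in Tsc1/p62Δhep and 56.6% in Tsc1Δhep, where over all genes tested it was 14.9% and 31.3%.

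Leaving out Tsc1Δhep 3 changed the outcome of the test. Without it, edgeR called 70 of 76 members lower, against 24.4% of all genes, with a median log2 fold change of -1.43. Without Tsc1Δhep 1 it called only Rpl37, against 14.8% of all genes lower, with a median of -0.59 and -0.97 for Rpl37. Without Tsc1Δhep 2 it called 0, against 9.1% of all genes, and without Tsc1/p62Δhep 1, 2 or 3 it called 0, against 5.82%, 6.11% and 9.37%. By limma on log2(CPM + 1), the median was -0.88 and 1 member was called lower, against 14.2% of all genes. With the trends by GC content and transcript length also removed from each library, the limma median was -0.59. That fit called 5 members lower, against 17.5% of all genes. It called 1 of 76 members higher, against 1908 of 12526 genes, namely Rps29 with a log2 fold change of 0.51.

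The 4 genes that fell are described with their values, in order of log2 fold change. Rps24, a small subunit protein whose human gene is mutated in Diamond-Blackfan anaemia, had 90.1, 94.8 and 98.0 CPM in Tsc1/p62Δhep 1 to 3, against 763, 382 and 105 CPM in Tsc1Δhep 1 to 3. The groups did not overlap, but Tsc1Δhep 3 stood close to Tsc1/p62Δhep. Rps24 was 4.42-fold lower (log2 fold change -2.14 ± 0.62 SE, edgeR adjusted p = 0.0410).

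Rps12, a small subunit protein, had 80.5, 113 and 116 CPM in Tsc1/p62Δhep, against 665, 412 and 119 CPM in Tsc1Δhep. Tsc1Δhep 3 was again the one near Tsc1/p62Δhep, and Rps12 was 3.86-fold lower (log2 fold change -1.95 ± 0.56 SE, edgeR adjusted p = 0.0407). Rpl35, which sits beside the exit of the peptide tunnel, had 27.4, 32.7 and 36.6 CPM in Tsc1/p62Δhep, against 217, 115 and 35.8 CPM in Tsc1Δhep. For this gene the groups overlapped, since Tsc1Δhep 3 lay under Tsc1/p62Δhep 3. Rpl35 was 3.81-fold lower (log2 fold change -1.93 ± 0.57 SE, edgeR adjusted p = 0.0445).

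Rpl37, a zinc-binding protein of the large subunit, had the lowest adjusted p of the family and a smaller change. It was at 61.0, 55.7 and 58.1 CPM in Tsc1/p62Δhep, against 211, 150.1 and 78.7 CPM in Tsc1Δhep. The groups did not overlap, and Rpl37 was 2.52-fold lower (log2 fold change -1.33 ± 0.35 SE, edgeR adjusted p = 0.0300). Few of these calls held with 1 library left out, when Rpl37 passed in 2 of 6 fits and Rps24, Rps12 and Rpl35 in 1 of 6 each. The edgeR adjusted p ran from 0.00215 to 0.118 for Rpl37, from 0.00204 to 0.139 for Rps24, from 0.00212 to 0.149 for Rps12 and from 0.00229 to 0.154 for Rpl35, the lowest always being without Tsc1Δhep 3.

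**Figure D3:**
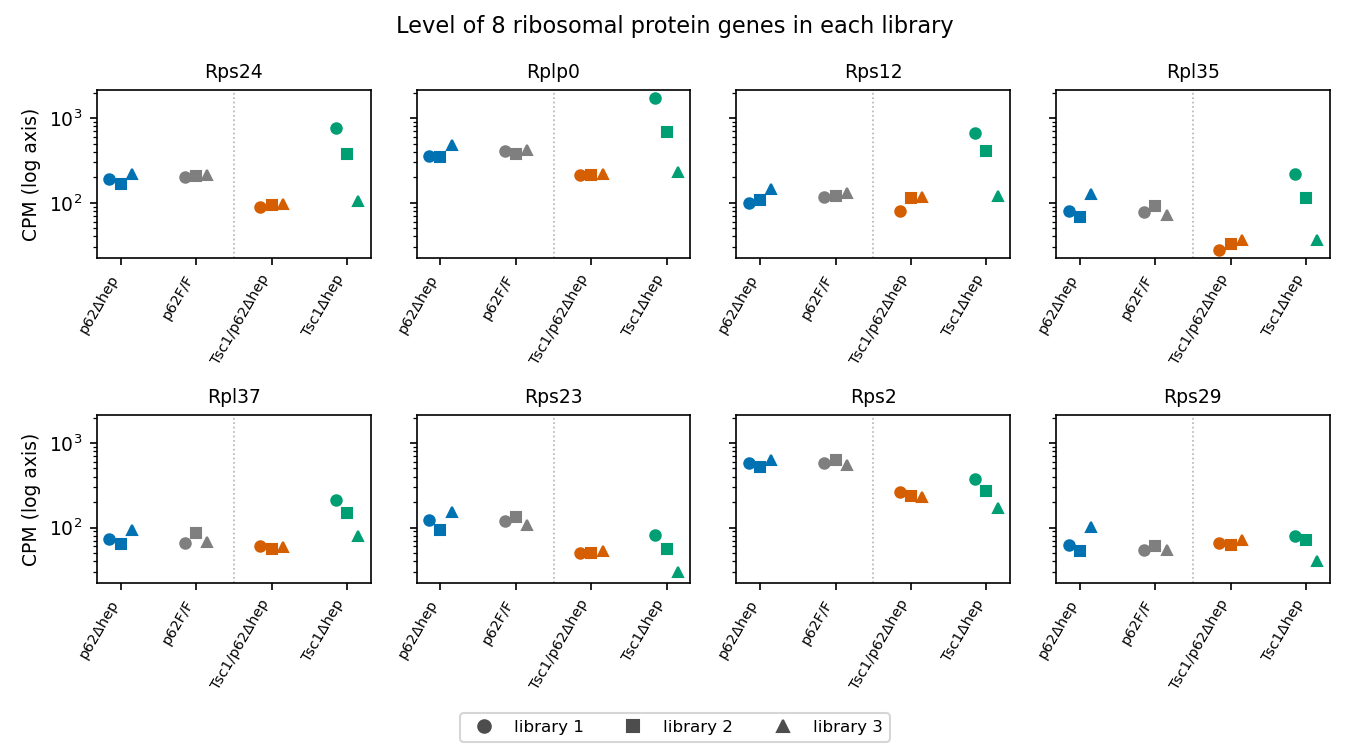
Level of 8 ribosomal protein genes in each library, in CPM on a log axis, with 1 symbol per library and groups along the x axis. The upper row and Rpl37 show Tsc1Δhep 1 and 2 above Tsc1/p62Δhep with Tsc1Δhep 3 close to it, while Rps23, Rps2 and Rps29 have overlapping groups.

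The stalk proteins bind the GTPase factors of translation at the large subunit. Rplp0, which anchors the stalk, had 212, 211 and 218 CPM in Tsc1/p62Δhep, against 1729, 689 and 231 CPM in Tsc1Δhep. The groups did not overlap, and the log2 fold change of -2.05 ± 0.63 (SE) had an edgeR adjusted p of 0.0518. Rplp1 had 189, 180.3 and 177 CPM in Tsc1/p62Δhep, against 703, 452 and 185 CPM in Tsc1Δhep, where Tsc1Δhep 3 lay among the Tsc1/p62Δhep values (log2 fold change -1.29 ± 0.44 SE, edgeR adjusted p = 0.0687). Rplp2 had a smaller log2 fold change of -0.96 ± 0.40 (SE, edgeR adjusted p = 0.114).

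Of the other members with large fold changes, Rpl41 had 54.3, 78.5 and 84.2 CPM in Tsc1/p62Δhep, against 490.3, 276 and 74.95 CPM in Tsc1Δhep. Tsc1Δhep 3 fell within Tsc1/p62Δhep, and the log2 fold change of -1.95 ± 0.60 (SE) had an edgeR adjusted p of 0.0503. Rpl8, which lies near the peptidyl transferase centre, had 219, 203 and 243 CPM in Tsc1/p62Δhep, against 724, 518 and 267 CPM in Tsc1Δhep. Its groups did not overlap (log2 fold change -1.18 ± 0.36 SE, edgeR adjusted p = 0.0504).

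Genes of the free ribosomal proteins that bind Mdm2, the ubiquitin ligase of p53, did not pass the test. Rpl5 had 117, 124 and 141 CPM in Tsc1/p62Δhep, against 952, 314 and 115 CPM in Tsc1Δhep, so the value of Tsc1Δhep 1 was far above all others and that of Tsc1Δhep 3 was the lowest (log2 fold change -1.86 ± 0.67 SE, edgeR adjusted p = 0.0790). Rpl11, which joins Rpl5 and 5S RNA in a particle, had a log2 fold change of -0.82 ± 0.42 (SE, edgeR adjusted p = 0.184). Rpl23 had a log2 fold change of -0.70 ± 0.36 (SE, edgeR adjusted p = 0.191).

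Rps6, the substrate of the S6 kinases downstream of mTORC1, had 92.0, 105 and 109 CPM in Tsc1/p62Δhep, against 242, 182 and 86.0 CPM in Tsc1Δhep. On the TMM scale, Tsc1Δhep 3 lay below all Tsc1/p62Δhep libraries (log2 fold change -0.74 ± 0.36 SE, edgeR adjusted p = 0.167). Human RPS19 is the gene most often mutated in Diamond-Blackfan anaemia, and Rps19 had a log2 fold change of -1.26 ± 0.49 (SE, edgeR adjusted p = 0.100). Human RPS14 lies in the region lost in the 5q- syndrome, and Rps14 had -0.97 ± 0.55 (SE, edgeR adjusted p = 0.224).

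At the other end of the range were genes with log2 fold changes near 0. Rps29 had 66.1, 61.5 and 71.8 CPM in Tsc1/p62Δhep, against 80.1, 71.3 and 40.1 CPM in Tsc1Δhep. It was the only member with a positive fold change, 0.06 ± 0.28 (SE, edgeR adjusted p = 0.890), and the sign turned to -0.27 when only library totals were used for scaling and to -0.17 without Tsc1Δhep 3. Rps23, a protein of the decoding centre, had 50.4, 49.4 and 52.8 CPM in Tsc1/p62Δhep, against 82.1, 55.6 and 29.9 CPM in Tsc1Δhep, which lie on both sides of them (log2 fold change -0.14 ± 0.34 SE, edgeR adjusted p = 0.791).

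Rps2, which lines the mRNA entry channel, had 261, 233 and 228 CPM in Tsc1/p62Δhep, against 379, 268 and 169.5 CPM in Tsc1Δhep. Its groups overlapped in the same way (log2 fold change -0.18 ± 0.31 SE, edgeR adjusted p = 0.690). Rpl4, a protein of the tunnel wall, had a log2 fold change of -0.29 ± 0.31 and Rps7, a small subunit protein, one of -0.43 ± 0.47 (SE, edgeR adjusted p = 0.506 and 0.517). Even in these 5 genes Tsc1Δhep 3 was the lowest library of its group. The signs of Rps23, Rps2 and Rps7 turned positive without Tsc1Δhep 1 and with the GC and length trends removed.

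The medians of the subunits were close. In the large subunit, 2 of 45 members tested fell and 0 rose, with a median log2 fold change of -1.04. In the small subunit, 2 of 31 fell and 0 rose, with a median of -1.09. Of all genes, 14.9% were lower and 9.25% higher in that test, so both subunits had smaller shares of calls than all genes. Across the 76 members, the log2 fold change had Spearman correlations of 0.06 with transcript length, -0.14 with GC content, 0.09 with the share of 75-base windows found in other genes and -0.10 with the level per kb. These values describe genes that share the same 6 libraries, and no test was made of them.

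Paralogs gave further detail. Rps27l, a paralog of Rps27 known as a p53 target, had 159, 149.6 and 188 CPM in Tsc1/p62Δhep, against 368, 289 and 108 CPM in Tsc1Δhep, with Tsc1Δhep 3 below the others (log2 fold change -0.62 ± 0.42 SE, edgeR adjusted p = 0.293). Rps27 itself had only 3 to 4 counts per library in Tsc1/p62Δhep and 3 to 10 in Tsc1Δhep. Rpl22l1, a paralog of Rpl22, had 24.2, 9.77 and 7.47 CPM in Tsc1/p62Δhep, against 37.6, 25.3 and 9.06 CPM in Tsc1Δhep (log2 fold change -0.80 ± 0.59 SE, edgeR adjusted p = 0.343). Here the high library of Tsc1/p62Δhep was the first, and the groups overlapped.

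Rps4y2, a symbol now given as Rps4l in RefSeq, had 9.18, 8.72 and 3.70 CPM in Tsc1/p62Δhep, against 69.2, 2.60 and 3.90 CPM in Tsc1Δhep. Its log2 fold change of -1.81 ± 1.16 (SE, edgeR adjusted p = 0.275) rests on Tsc1Δhep 1 and was 1.16 without that library. The paralog on the X chromosome, Rps4x, had a log2 fold change of -0.74 ± 0.34 (SE, edgeR adjusted p = 0.146). Rpl3 had -0.72 ± 0.31 (SE, edgeR adjusted p = 0.129), and its paralog of striated muscle, Rpl3l, had 31 counts in Tsc1Δhep 1, 15 in Tsc1Δhep 2 and at most 1 in any other library. Rpl7 had a log2 fold change of -0.53, Rpl7l1 one of -0.48, Rpl10 one of -0.60, Rpl22 one of -0.87 and Rpl39 one of -1.48. Among these 5, the edgeR adjusted p lay between 0.0737 for Rpl39 and 0.302 for Rpl7.

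The third comparison sets the p62 difference on the Tsc1-deleted background against that on the intact background, in 1 fit of all 12 libraries. The interaction passed for 2 members, and both differences were more negative with Tsc1 deleted. In the same edgeR test, with Benjamini-Hochberg adjustment over 13231 genes, 2 of 78 members were lower and 0 higher, against 9.32% and 6.76% of all genes. The log2 difference was -1.42 ± 0.41 (SE, adjusted p = 0.0365) for Rpl37 and -2.13 ± 0.67 (SE, adjusted p = 0.0491) for Rpl35. In CPM, Rpl37 was at 58.3 ± 2.67 in Tsc1/p62Δhep against 147 ± 66.3 in Tsc1Δhep, and at 77.2 ± 15.5 in p62Δhep against 72.8 ± 10.8 in p62F/F (SD, n = 3 each). Rpl35 was at 32.2 ± 4.62 CPM in Tsc1/p62Δhep against 123 ± 90.8 in Tsc1Δhep, and at 91.6 ± 31.8 in p62Δhep against 80.0 ± 10.5 in p62F/F (SD, n = 3 each).

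The median log2 difference of the 78 members was -1.09, against -0.07 for all genes. Of the members 77 were negative, against 7053 of all 13231 genes. The exception in sign was Rps27, with 0.62 ± 0.84 (SE, edgeR adjusted p = 0.636). At an unadjusted p under 0.05, 35 members were lower and 0 higher, against 18.8% and 14.8% of all genes. Without Tsc1Δhep 3, edgeR called 69 members lower, against 18.9% of all genes, and without any other single library it called 0, against 4.98% to 9.1% of all genes. DESeq2 called 16 lower, against 12.7% of all genes. Among members that did not pass, the most negative were Rpl41 with -2.23, Rps4y2 with -2.05, Rps24 with -2.04 and Rplp0 with -2.02, whose edgeR adjusted p-values were 0.0507, 0.296, 0.0587 and 0.0694.

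**Figure D4:**
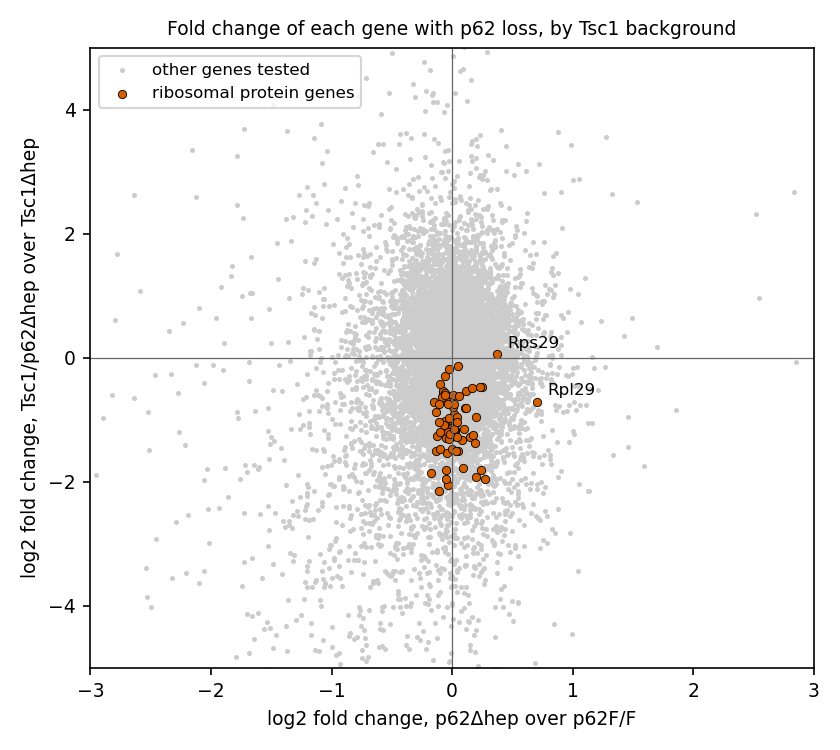
Log2 fold change of each gene with p62 loss, on the intact Tsc1 background (x axis, p62Δhep over p62F/F) and on the Tsc1-deleted one (y axis, Tsc1/p62Δhep over Tsc1Δhep), for 12100 genes tested in both, of which 120 lie outside the axes. The 76 ribosomal protein genes, in orange, lie near 0 on the x axis and, but for Rps29, below 0 on the y axis.

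Other genes of protein synthesis were read from lists of known members. Shares of all genes given beside their counts are those of the same test between Tsc1/p62Δhep and Tsc1Δhep. Of 4 ribosomal proteins whose names the pattern misses, 0 passed edgeR's test and 2 were lower at an unadjusted p under 0.05, against 14.9% and 22.7% of all genes lower, and the median log2 fold change was -0.83. Gnb2l1, which encodes the scaffold Rack1 on the small subunit, had 212, 209 and 243 CPM in Tsc1/p62Δhep, against 715, 541 and 214 CPM in Tsc1Δhep, with Tsc1Δhep 3 among the Tsc1/p62Δhep values (log2 fold change -1.15 ± 0.41 SE, edgeR adjusted p = 0.0801). Rpsa, of the small subunit, had a log2 fold change of -0.98 ± 0.38 and Fau, which encodes the small subunit protein eS30, one of -0.68 ± 0.42 (SE, edgeR adjusted p = 0.0953 and 0.258). Rpl36al was the exception in sign, at 0.46 ± 0.37 (SE, edgeR adjusted p = 0.383).

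Of 21 translation factors and related genes with TOP mRNAs, 2 fell and 0 rose, against 14.9% of all genes lower and 9.25% higher, and the median log2 fold change was -0.34. That share is below the one of all genes. Eef1d, a subunit of the exchange factor of elongation factor 1, had 62.1, 69.3 and 83.9 CPM in Tsc1/p62Δhep, against 216, 179.2 and 95.2 CPM in Tsc1Δhep. Its groups did not overlap (log2 fold change -1.19 ± 0.32 SE, edgeR adjusted p = 0.0346). Nap1l1, a histone chaperone with a TOP mRNA, also fell (log2 fold change -0.97 ± 0.27 SE, edgeR adjusted p = 0.0350). Eef1b2, of the same exchange factor as Eef1d, had a log2 fold change of -1.47 ± 0.47 (SE, edgeR adjusted p = 0.0585).

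Host transcripts of small nucleolar RNAs also begin with TOP tracts. Of 7 in the table, 0 passed edgeR's test and 3 were lower at an unadjusted p under 0.05, against 14.9% and 22.7% of all genes lower, and the median log2 fold change was -0.95. Snhg1 had 5.09, 5.11 and 2.92 CPM in Tsc1/p62Δhep, against 43.4, 15.8 and 4.65 CPM in Tsc1Δhep, and again Tsc1Δhep 3 lay among the Tsc1/p62Δhep values (log2 fold change -2.28 ± 0.73 SE, edgeR adjusted p = 0.0568). Gas5 had a log2 fold change of -0.95 ± 0.40 (SE, edgeR adjusted p = 0.117).

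Of 17 genes of ribosome assembly, 3 fell and 0 rose, against 14.9% of all genes lower, which is near that share, with a median log2 fold change of -0.35. These were Eif6, which keeps the subunits apart, with -1.07 ± 0.24 (SE, edgeR adjusted p = 0.0174), Brix1, a large subunit assembly factor, with -1.08 ± 0.27 (SE, edgeR adjusted p = 0.0275), and Nap1l1, which is on both lists. Among 14 genes of RNA polymerase I and its factors 0 passed edgeR's test and 3 were lower at an unadjusted p under 0.05, against 14.9% and 22.7% of all genes lower, with a median log2 fold change of -0.18. Between p62Δhep and p62F/F, 0 genes of the lists described here passed edgeR's test, against 0.0% of all genes higher and 0.0159% lower. At an unadjusted p under 0.05, 1 of 17 assembly genes was higher and 1 of 14 genes of RNA polymerase I lower. Of all genes, 3.16% were higher and 4.96% lower at that threshold. DESeq2 and limma were not read for these lists.

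The lists shared the order of the Tsc1Δhep libraries to different extents. On log2(CPM + 0.5) relative to each gene's mean in the table, the median of the 76 ribosomal protein genes was -0.40, -0.54 and -0.39 in Tsc1/p62Δhep 1 to 3, against 1.24, 0.67 and -0.63 in Tsc1Δhep 1 to 3. For the TOP translation factors it was -0.21, -0.20 and -0.20, against 0.60, 0.30 and -0.26. For RNA polymerase I it was 0.03, -0.12 and -0.02 in Tsc1/p62Δhep, against 0.38, 0.11 and -0.21 in Tsc1Δhep. Over all genes the medians lay within 0.02 of 0 in every library.

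**Figure D5:**
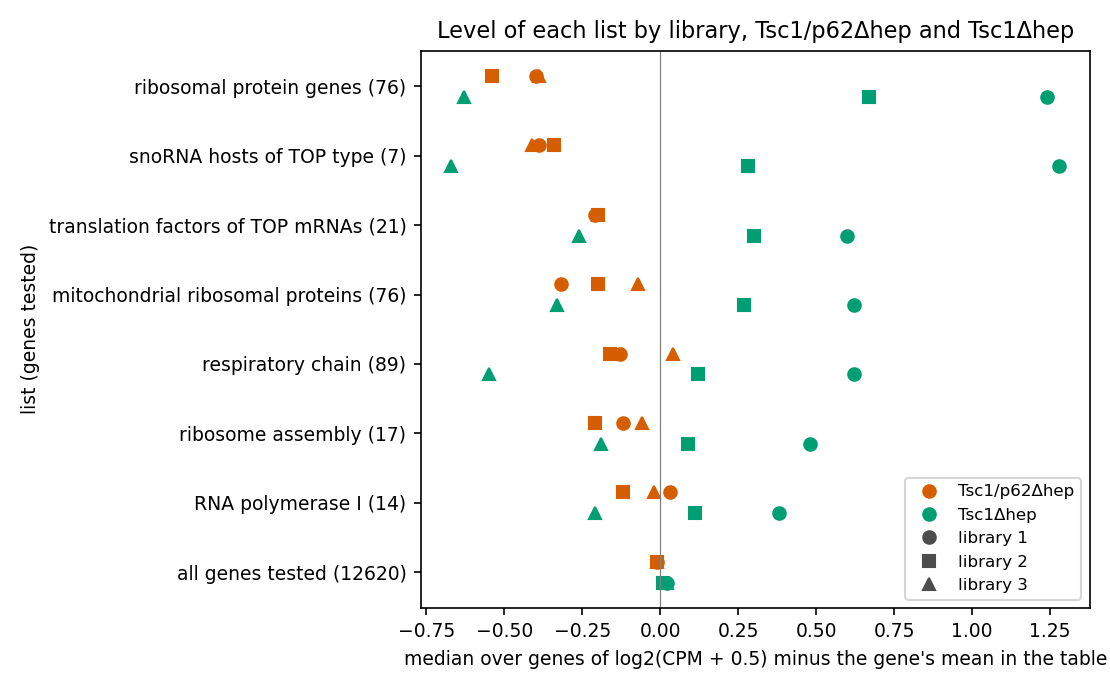
Median level of each gene list in each library of the Tsc1 table (x axis, log2(CPM + 0.5) minus the gene's mean over the 6 libraries), with the number of genes tested after each name. In each list, that of all genes apart, Tsc1Δhep 1 is highest, Tsc1Δhep 2 next and Tsc1Δhep 3 below 0, and the ribosomal protein genes and the snoRNA hosts span the widest range.

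Several other measures were set beside the order of the Tsc1Δhep libraries, and their part in the result was not tested. Tsc1 had 13.7, 11.9 and 9.35 CPM in Tsc1/p62Δhep 1 to 3, against 5.76, 5.39 and 10.9 CPM in Tsc1Δhep 1 to 3, so the Tsc1Δhep library lowest in ribosomal protein genes was the highest in Tsc1. All 6 cholangiocyte and progenitor markers were detected, and their sum was 84.9 to 134 CPM in Tsc1/p62Δhep, against 5253, 2231 and 758 CPM in Tsc1Δhep 1 to 3. Most of that sum was Spp1, with 5185, 2212 and 724 CPM in Tsc1Δhep 1 to 3, so the order of the sum is that of Spp1. Epcam, with 7.06, 1.38 and 6.76 CPM in Tsc1Δhep 1 to 3, did not follow it. All 5 endothelial markers summed to 102 to 132 CPM in Tsc1/p62Δhep, against 26.7, 66.6 and 147 CPM in Tsc1Δhep, the reverse order. All 6 stellate markers summed to 163 to 216 CPM in Tsc1/p62Δhep, against 42.2, 232 and 240 CPM in Tsc1Δhep.

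The 8 hepatocyte markers did not follow that order, with sums of 84572 to 115330 CPM in Tsc1/p62Δhep and 31665, 61547 and 29166 CPM in Tsc1Δhep. All 6 macrophage markers in the table summed to 96.6 to 114 CPM in Tsc1/p62Δhep, against 242 to 365 CPM in Tsc1Δhep. All 4 proliferation genes summed to 2.82 to 9.22 CPM in Tsc1/p62Δhep, against 35.5 to 56.3 CPM in Tsc1Δhep. T and NK cell markers stayed at or under 3.87 CPM and B and plasma cell markers at or under 1.97 CPM in this table. Neutrophil markers summed to 0.283 to 0.714 CPM in Tsc1/p62Δhep and 1.63 to 9.92 CPM in Tsc1Δhep, and immediate early genes to 66.1 to 71.0 CPM in Tsc1/p62Δhep and 62.5 to 84.1 CPM in Tsc1Δhep. Erythroid markers summed to 82.1 to 145 CPM in Tsc1/p62Δhep and 23.9 to 36.1 CPM in Tsc1Δhep, with Hba-a1 at 0 in all libraries. The precursor of ribosomal RNA, Rn45s, took 1.21% of counts in Tsc1/p62Δhep 1 and 0.0751% to 0.181% in the other libraries of the Tsc1 table, and the 4 calls were the same genes with Rn45s left out of the fit.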

How the data were processed

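The authors deposited 2 tables of gene counts, whole numbers with no normalization, each with 23420 genes and 6 of the 12 poly(A) liver libraries. All columns were matched to samples, leaving 0 unmapped. Directional libraries were made from Trizol RNA, per the labels' protocols. Aligner, counter, annotation and use of strand were not given in the sources used here. Per the submitters' processing notes the build was hg19, although the symbols are those of mouse, and no coordinate of that build was used. Dates stood in place of 27 gene names.

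Counts were analysed in R 4.3.3 with edgeR 4.0.16: filterByExpr with a minimum count of 10, TMM scaling within each table, the quasi-likelihood F test, and Benjamini-Hochberg adjustment over all genes tested at 0.05. For the interaction, all 12 libraries were used and TMM factors were instead computed over them together. CPM values kept the factors made within each table. DESeq2 1.42.0 and limma 3.58.1 served as alternatives, with other scalings, no filter, removal of GC and length trends, and each library left out. The fits were tested on simulated data. No replicate pair agreed within sampling noise. Wilson intervals cover counting error only.

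Transcript lengths came from GENCODE vM21 and start windows from RefSeq. The members and the lists, those of cell type markers included, were chosen with earlier results of these data known. Genes were named by rule: called members, the 5 highest and 5 lowest fold changes, the ends of the level range, stalk proteins, Rps6, Mdm2 binders, ribosomopathy genes and paralog pairs. From each list, up to 4 genes of smallest p were eligible to be named. One gene of the list of further ribosomal proteins is not reported here.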

Additional observations from a re-analysis of the deposited data

Results flagged for a closer look

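Rpl37 and Rpl35 are listed because the difference made by p62 loss was itself found to differ between the Tsc1 backgrounds, by edgeR's test of the interaction. The log2 difference of the p62 effect was -1.42 for Rpl37 and -2.13 for Rpl35, with edgeR adjusted p-values of 0.0365 and 0.0491. In both genes the interaction passed in 1 of 12 fits that left out a library, the one without Tsc1Δhep 3, and the edgeR adjusted p ran from 0.00147 to 0.0960 for Rpl37 and from 0.00151 to 0.125 for Rpl35.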

How the results depend on the processing

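No alternative changed the result of 0 members called between p62Δhep and p62F/F. Between Tsc1/p62Δhep and Tsc1Δhep, the count of members called lower, 4 with edgeR and TMM scaling, was 34 with DESeq2, 54 with library totals alone, 7 with no low-count filter, 1 with limma on log2(CPM + 1) and 49 with all 12 libraries in 1 fit, against 18.8%, 26.4%, 10.6%, 14.2% and 22.3% of all genes lower. It was 0 to 70 with 1 library left out, against 5.82% to 24.4%, and 59 without both Tsc1Δhep 3 and Tsc1/p62Δhep 1, against 14.7%. Library totals alone moved the median of all genes to -0.40 and that of the members to -1.38, so relative to all genes the members changed by about as much as with TMM. With the GC and length trends removed, 1 of 76 members, Rps29, was called higher, against 1908 of 12526 genes. For the interaction, the 2 members called lower became 16 with DESeq2, 1 with RLE size factors, 27 with library totals alone and 0 with limma, against 12.7%, 9.19%, 18.1% and 9.33% of all genes. They became 0 to 69 with 1 library left out, against 4.98% to 18.9%, and 64 without both libraries named above, against 14.5%. The cause of these moves was not tested. With the replicate number as a block, 0 members were called between Tsc1/p62Δhep and Tsc1Δhep and 0 in the interaction, against 9.49% and 4.1% of all genes lower. Same-numbered libraries did not deviate together, with correlations of -0.388, -0.461 and 0.042 in the p62 table and -0.067, -0.064 and -0.108 in the Tsc1 table. These values gave no sign that the numbers pair the libraries, but they cannot exclude it.

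The sign of the fold change was followed for selected members only. In p62Δhep over p62F/F these were the members with the highest and lowest fold changes. Members with smaller fold changes were not followed there, and their signs may turn as well. The median of the family in that comparison ran from -0.12 to 0.09 with 1 library left out. Among the members followed, fold changes that turned their sign belonged to genes that did not pass the test. With 1 library left out, or the pair named above, the p62Δhep over p62F/F value ran from -0.21 to 0.00 for Rpl17 and from -0.08 to 0.46 for Rpl41. For Tsc1/p62Δhep over Tsc1Δhep it ran from -0.17 to 0.26 for Rps29, -0.81 to 0.01 for Rps7, -0.46 to 0.14 for Rps2, -0.41 to 0.25 for Rps23 and -2.47 to 1.16 for Rps4y2. In the interaction it ran from -0.56 to 0.02 for Rps29, -0.48 to 0.19 for Rps23, -0.45 to 0.16 for Rps2, -0.48 to 0.03 for Rpl4 and -2.76 to 0.90 for Rps4y2. Without Tsc1Δhep 3 and Tsc1/p62Δhep 1 together, Rps29 was at -0.15, and without p62Δhep 3 the interaction of Rps23 was at 0.00. Library totals alone put Rps29 at -0.27. With the GC and length trends removed, Rps7 became 0.06, Rps2 0.18 and Rps23 0.25 in Tsc1/p62Δhep over Tsc1Δhep, and Rps29 became 0.16, Rps23 0.17 and Rps2 0.20 in the interaction. The share of library counts in Tsc1/p62Δhep minus that in Tsc1Δhep was -1.12 percentage points and ran from -1.61 to -0.632 with 1 library left out. In p62Δhep minus p62F/F it was -0.0174 and ran from -0.097 to 0.0945. Depth limits Rps27 and Rpl34, while for the other members the spread between 3 libraries is the limit.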

Other observations

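Mitochondrial ribosomal proteins, which are encoded in the nucleus and translate the mitochondrial mRNAs, had smaller shares of calls than all genes. Between Tsc1/p62Δhep and Tsc1Δhep, 6 of 76 fell and 0 rose by edgeR's test, against 14.9% of all genes lower and 9.25% higher, with a median log2 fold change of -0.43. Mrps18a had 29.2, 35.8 and 34.6 CPM in Tsc1/p62Δhep 1 to 3, against 79.6, 60.04 and 60.4 CPM in Tsc1Δhep 1 to 3. Every Tsc1Δhep library stood above every Tsc1/p62Δhep library (log2 fold change -1.01 ± 0.21 SE, edgeR adjusted p = 0.0140). Mrps6 had a log2 fold change of -1.87 ± 0.50 (SE, edgeR adjusted p = 0.0326) and Mrpl13 one of -1.51 ± 0.41 (SE, edgeR adjusted p = 0.0342). Between p62Δhep and p62F/F, 0 of 76 passed edgeR's test, against 0.0% of all genes higher and 0.0159% lower. At an unadjusted p under 0.05, 2 were higher and 1 lower, against 3.16% and 4.96% of all genes.

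Genes of the respiratory chain, taken by symbol with some assembly factors among them, also had shares below those of all genes. They were meant as liver genes with short transcripts, but their lengths were not compared with those of ribosomal proteins. In Tsc1/p62Δhep against Tsc1Δhep 2 of 89 rose and 4 fell by edgeR's test, against 9.25% and 14.9% of all genes, with a median log2 fold change of -0.20. Cox17, a copper chaperone of cytochrome oxidase, fell (log2 fold change -1.59 ± 0.40 SE, edgeR adjusted p = 0.0264), and Atp5sl, an assembly factor of complex I, rose (log2 fold change 1.12 ± 0.23 SE, edgeR adjusted p = 0.0137). The median level of the list was -0.13, -0.16 and 0.04 in Tsc1/p62Δhep 1 to 3, against 0.62, 0.12 and -0.55 in Tsc1Δhep 1 to 3 on log2(CPM + 0.5) relative to each gene's mean in the table.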
